A study of Mus musculus with 10 samples.

Results

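The genes described here are 10 members of the innate immune pathway that runs from Toll-like receptors through NF-kB to the inflammasome: the receptors Tlr2 and Tlr4, the adaptor Myd88, the NF-kB subunit gene Nfkb1, the inhibitors Nfkbia and Tnfaip3, the cytokines Tnf and Il1b, the protease Casp1 and the sensor Nlrp3. They were taken by gene symbol from a table of 29657 genes, and each of the 10 symbols matched 1 row. Liver RNA of C57BL/6 mice was measured in 10 samples, and the deposited values were FPKM, fragment counts scaled by transcript length and library size. All mice ate CDAHFD for 8 weeks, a choline-deficient, amino acid-defined, high-fat diet under which steatosis, inflammation and scarring develop. The control group of 5 samples, labelled WT, came from mice given the adeno-associated vector AAV8-NC. The other 5 samples came from mice given AAV8-TBG-galectin-3, which the labels describe as a hepatocyte-specific knockdown of galectin-3, with TBG a promoter active in hepatocytes. What this vector carries is not described in the labels, and the age and sex of the mice are not given.

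Toll-like receptors sit on the cell surface or in endosomes and recognise microbial products and molecules from damaged cells. Through MyD88 they activate the IkB kinase, which frees NF-kB dimers from their inhibitor; NF-kB then raises transcription of cytokines, of the Nlrp3 and Il1b genes, and of its own brakes Nfkbia and Tnfaip3. A second signal assembles NLRP3 with caspase-1, which cuts the interleukin-1 beta precursor into its active form, a step that messenger RNA levels do not show. In liver many of these transcripts are abundant in Kupffer cells and other leukocytes, while endothelial cells, stellate cells and hepatocytes also express some. In whole tissue fewer cells of a type and less RNA per cell cannot be told apart.

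Nfkbia, Tnfaip3 and Tlr2 are shown with the bases before their transcription start, because each held a match to the kB consensus, the sequence that NF-kB dimers bind. RefSeq starts (GRCm38.p6) were found for 8 of the 10 genes, and the 250 bases before each start were searched on both strands, with overlapping matches merged. A match stood before a start in 4 of the 8 genes, these and Nlrp3, where 8.23% of all 27025 genes held one at any start. Tnfaip3 and Nlrp3 each had another annotated start with no match before it. A match is a description of the letters and not a measured binding site. Capitals mark the matched bases, and each sequence is written 5′ to 3′ on the gene's own strand.
Nfkbia (chr12:55492648-55492897, minus strand): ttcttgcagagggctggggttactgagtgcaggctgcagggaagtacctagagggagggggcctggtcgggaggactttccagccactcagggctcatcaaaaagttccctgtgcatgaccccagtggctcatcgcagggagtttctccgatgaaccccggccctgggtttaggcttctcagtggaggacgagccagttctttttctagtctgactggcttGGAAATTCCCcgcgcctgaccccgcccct
Tnfaip3 (chr10:19015411-19015660, minus strand): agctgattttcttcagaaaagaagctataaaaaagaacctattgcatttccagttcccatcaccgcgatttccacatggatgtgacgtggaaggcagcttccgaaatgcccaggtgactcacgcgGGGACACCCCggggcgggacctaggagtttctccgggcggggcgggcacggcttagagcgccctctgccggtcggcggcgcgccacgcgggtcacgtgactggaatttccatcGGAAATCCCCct
Tlr2 (chr3:83841609-83841858, minus strand): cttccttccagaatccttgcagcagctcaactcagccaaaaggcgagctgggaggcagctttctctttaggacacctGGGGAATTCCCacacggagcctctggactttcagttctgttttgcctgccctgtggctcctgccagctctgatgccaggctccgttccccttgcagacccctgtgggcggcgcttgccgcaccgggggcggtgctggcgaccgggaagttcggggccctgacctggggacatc
The Nfkbia match began 29 bases before the start, the Tnfaip3 matches 125 and 12 bases before it, and the Tlr2 match 173 bases before it. The matched bases of Nlrp3 were GGGAACCCCC, which began 186 bases before the start. The 3 genes printed above did not share a direction that passed a test, as the values below show.

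Lgals3, which encodes galectin-3, was read first as a check of the labels. It held 105, 73.9, 61.6, 71.0 and 42.2 FPKM in control libraries 1 to 5 and 67.4, 90.8, 85.2, 85.6 and 41.9 FPKM in the libraries labelled knockdown, and it did not differ beyond this spread (log2 difference 0.08, SE 0.25, limma adjusted p = 0.856). Whole-liver RNA does not separate hepatocytes from other cells, so this check cannot decide whether Lgals3 fell in hepatocytes. The group is therefore called labelled knockdown, and every direction rests on the labels. Of the 13471 genes with at least 0.5 FPKM in at least 5 libraries, 7.13% passed as higher and 9.65% as lower in labelled knockdown livers (limma adjusted p under 0.05). Scaling by the median of ratios turned this split from 960 higher and 1300 lower to 1212 and 1020. The median log2 difference of all tested genes was -0.04. The hepatocyte transcript of albumin (Alb) was at 28430 ± 1857 FPKM in control and 25340 ± 2366 FPKM in labelled knockdown libraries (SD, n = 5 each).

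Libraries differed in these genes within their groups, and 3 of them stood apart. Labelled knockdown 5 was the lowest of its group for 8 of the 10 genes, the exceptions being Tnfaip3 and Tnf. Control 5 was the lowest control for 7 of the 10 genes. Labelled knockdown 4 was the highest of its group for 5 genes, Tlr2, Tlr4, Nfkb1, Tnfaip3 and Il1b, and the lowest for Tnf. The mean of 13 tested macrophage markers, on the log2(FPKM + 1) scale, was also higher in labelled knockdown 4 than in the other 4 libraries of its group. Values without these libraries are given for members where they moved a call, and for some of the other genes.

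**Figure D1:**
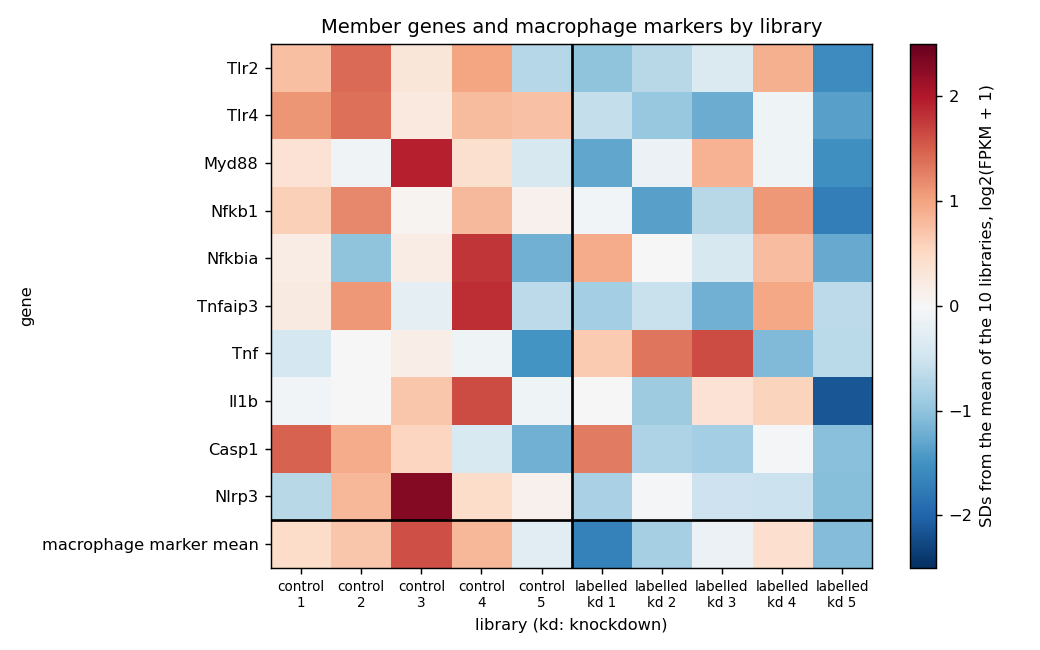
Heat map of the 10 genes (rows) in the 10 liver libraries (columns), each value given as SDs from that gene's mean over the libraries on the log2(FPKM + 1) scale, with the mean of 13 macrophage markers in the bottom row. Labelled knockdown 5 is below the mean for all 10 genes, and labelled knockdown 4 is above it for 5 of them.

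Under the limma test none of the 9 tested genes passed: 0 were higher and 0 lower, where 16.8% of all tested genes passed in either direction. Their log2 differences had a median of -0.13; 7 were below 0 and 2 above, and 1, that of Tlr2, had an unadjusted p under 0.05, as did 33.5% of all tested genes. Tlr4 had at least 0.5 FPKM in 4 libraries and so was not among the 9, yet it was the gene whose groups did not overlap. By the ratio of mean FPKM, 9 of the 10 genes were lower in the labelled knockdown libraries and Tnf was higher. All log2 differences were taken between means of log2(FPKM + 1), so that those of weakly expressed genes come out too small.

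**Figure D2:**
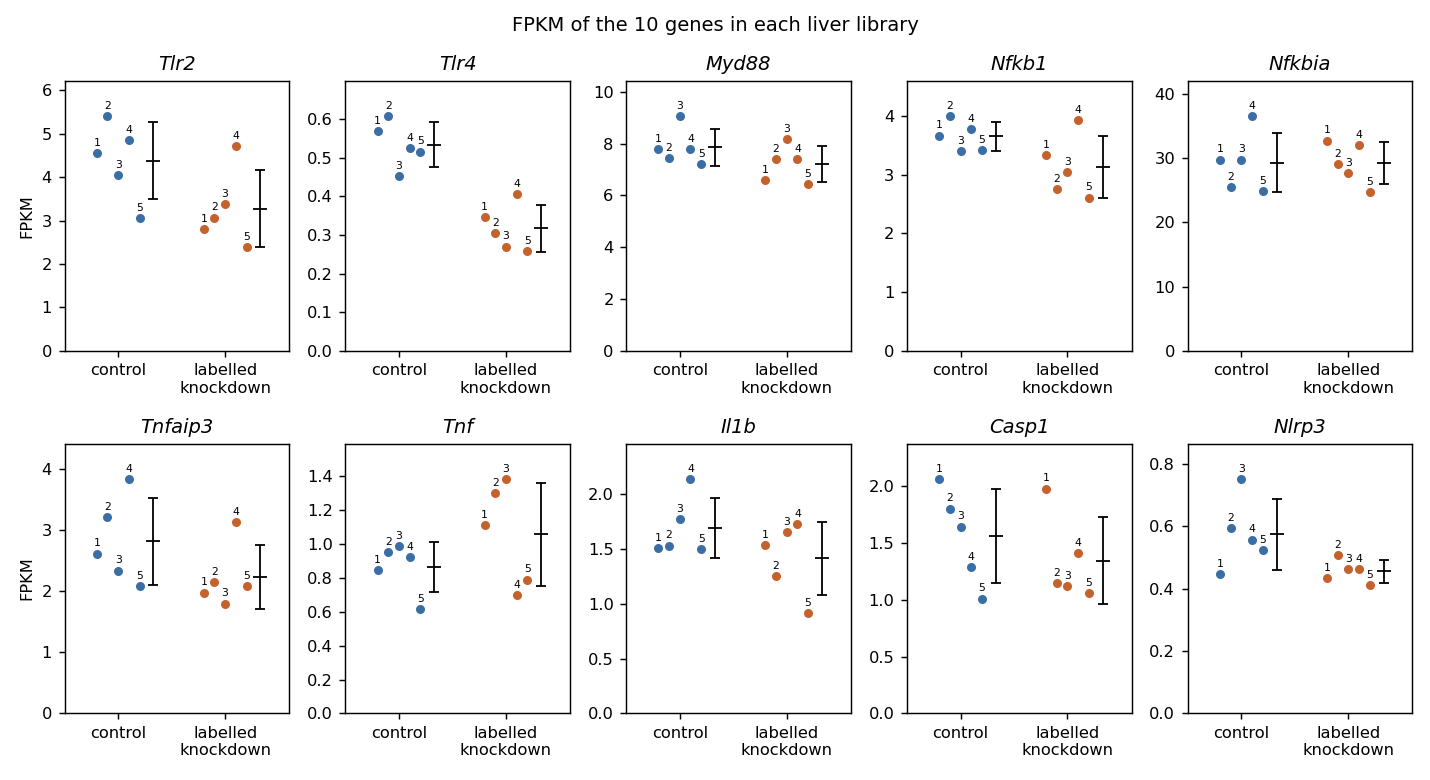
FPKM (vertical axis, from 0) of each gene in the 5 control and 5 labelled knockdown libraries, with library numbers beside the points and mean ± SD as the bar. The groups are separate for Tlr4, where labelled knockdown libraries lie between 0.258 and 0.406 and control libraries between 0.453 and 0.608, and they overlap for the other 9 genes.

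Among the receptors, Tlr4, the receptor for bacterial lipopolysaccharide, was lower in each labelled knockdown library than in any control library. Control libraries 1 to 5 held 0.569, 0.608, 0.453, 0.526 and 0.516 FPKM, against 0.346, 0.305, 0.270, 0.406 and 0.258 FPKM in labelled knockdown libraries 1 to 5. The mean fell from 0.534 ± 0.0585 to 0.317 ± 0.0606 FPKM (SD, n = 5 each; ratio 0.593), and the exact two-sided permutation test gave p = 0.00794, the smallest that its 252 assignments allow. Groups did not overlap for 12.0% of the 15464 genes averaging 0.25 FPKM or more (6.84% with the labelled knockdown group lower), a filter that does not use the groups and was chosen after the values were seen. With that filter the limma adjusted p of Tlr4 was 0.0389 (log2 difference -0.22, SE 0.06), beside 8.20% of genes called lower. Without any filter it was 0.0376, beside 2.30% of all genes called lower. The call was not firm: it held in 1 of 10 fits without 1 library, that without labelled knockdown 4, and adjusted p reached 0.0928 without control 2. It was 0.134 after the dependence on transcript length was taken out of every library, with a log2 difference of -0.13; the cause was not tested. In the authors' deposited table Tlr4 had a fold ratio of 0.593 and a q-value of 0.00132, without their mark of significance.

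Tlr2, the surface receptor for bacterial lipoproteins, held 4.55, 5.41, 4.05, 4.86 and 3.06 FPKM in control libraries 1 to 5. It held 2.81, 3.07, 3.39, 4.72 and 2.38 FPKM in the labelled knockdown libraries, so that control 5 lay among these and labelled knockdown 4 lay among the controls. The mean went from 4.38 ± 0.890 to 3.27 ± 0.888 FPKM (log2 difference -0.34, SE 0.15, limma adjusted p = 0.141), and the 95% interval of the fold ran from 0.628 to 0.994. The adjusted p was 0.0391 without labelled knockdown 4, 0.0556 without control 5, 0.273 without labelled knockdown 5 and 0.0427 with array weights. The macrophage markers lay beside these receptors: 4 of 13 tested were lower and 0 higher, beside 9.65% and 7.13% of all tested genes. Their median log2 difference was -0.42. The summed level of all 15 listed markers ranged from 582 to 935 FPKM in control and from 400 to 748 FPKM in labelled knockdown libraries. Adgre1, which encodes F4/80, went from 6.63 ± 0.760 to 3.01 ± 0.975 FPKM (limma adjusted p = 0.00684), while Clec4f (log2 difference -0.26, adjusted p = 0.624), Cd68 (-0.21, 0.524) and Lyz2 (-0.65, 0.0727) did not pass. The part of the macrophage markers in the receptor values was not tested.

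Myd88, the adaptor through which most Toll-like receptors and the interleukin-1 receptor signal, was at 7.77, 7.43, 9.06, 7.79 and 7.21 FPKM in control libraries and at 6.60, 7.39, 8.16, 7.41 and 6.44 FPKM in labelled knockdown libraries 1 to 5. The ranges overlapped for 3 of the 5 labelled knockdown libraries, and the difference did not pass (log2 difference -0.11, SE 0.08, limma adjusted p = 0.370). The 95% interval of the fold ran from 0.818 to 1.05. Nfkb1 encodes p105, the precursor of the p50 subunit of NF-kB. It was at 3.67, 4.0, 3.40, 3.78 and 3.42 FPKM in control libraries and at 3.34, 2.76, 3.05, 3.93 and 2.61 FPKM in labelled knockdown libraries. Of these, 4 lay below every control and labelled knockdown 4 lay near the top of the control range. The test gave a log2 difference of -0.18 (SE 0.09, limma adjusted p = 0.196), and the adjusted p was 0.0536 without labelled knockdown 4.

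Nfkbia, which encodes the inhibitor IkB alpha, had the highest level of the 10 genes and the smallest difference. Control libraries 1 to 5 held 29.8, 25.5, 29.8, 36.5 and 24.9 FPKM, and labelled knockdown libraries held 32.7, 29.1, 27.6, 32.1 and 24.7 FPKM. The estimated log2 difference was 0.00 (SE 0.11, limma adjusted p = 0.987), and the 95% interval of the fold ran from 0.844 to 1.19. Its sign was not stable and turned below 0 under other settings. Tnfaip3 encodes A20, the ubiquitin-editing enzyme that ends NF-kB signalling. It was at 2.61, 3.21, 2.33, 3.83 and 2.08 FPKM in control libraries and at 1.98, 2.14, 1.80, 3.13 and 2.08 FPKM in labelled knockdown libraries. Labelled knockdown 4 was again the one near the upper controls, and the test gave a log2 difference of -0.24 (SE 0.14, limma adjusted p = 0.253). The fold interval ran from 0.688 to 1.05. Of the genes with a kB match printed above, Nfkbia, Tnfaip3 and Tlr2 thus had fold changes of 0.00, -0.24 and -0.34 on the log2 scale, with 0 of the 3 past the test.

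**Figure D3:**
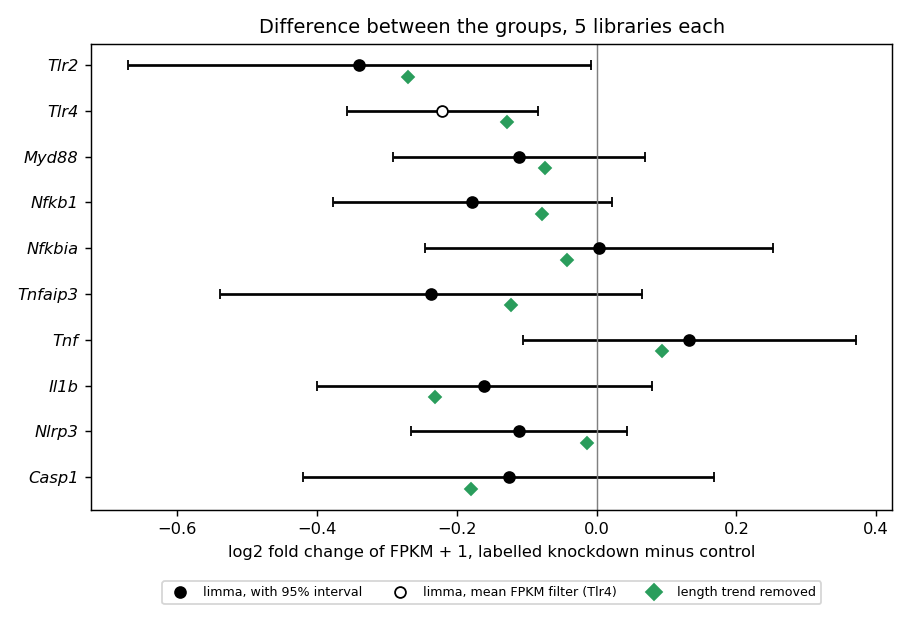
Difference in mean log2(FPKM + 1) (horizontal axis, labelled knockdown minus control) for each gene, with the 95% interval from limma as the bar and the value after removal of the length trend as a diamond. The intervals of 8 genes include 0; those of Tlr2 and Tlr4 end at -0.01 and -0.08, and the Tlr4 value (open circle) comes from the filter on mean FPKM.

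The cytokines went in different directions without passing the test. Tnf was at 0.845, 0.950, 0.988, 0.921 and 0.615 FPKM in control libraries 1 to 5 and at 1.11, 1.301, 1.38, 0.696 and 0.789 FPKM in labelled knockdown libraries. Labelled knockdown 1, 2 and 3 lay above every control, and 4 and 5 lay inside the control range. The log2 difference was 0.13 (SE 0.11, limma adjusted p = 0.420), with a 95% interval of the fold from 0.929 to 1.29. Il1b was at 1.51, 1.53, 1.77, 2.14 and 1.499 FPKM in control libraries and at 1.53, 1.25, 1.65, 1.72 and 0.915 FPKM in labelled knockdown libraries, of which 2 lay below every control. Its log2 difference was -0.16 (SE 0.11, limma adjusted p = 0.327), with a fold interval from 0.758 to 1.06. The ratio of Tnf to Il1b FPKM within a library, looked at after the values were seen and not tested, was 0.410 to 0.622 in control libraries. It was 0.726, 1.04, 0.838 and 0.863 in labelled knockdown 1, 2, 3 and 5, and 0.404 in labelled knockdown 4.

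Nlrp3 and Casp1 form the inflammasome end of the pathway. Nlrp3, the sensor, was at 0.446, 0.595, 0.752, 0.558 and 0.523 FPKM in control libraries and at 0.435, 0.508, 0.462, 0.462 and 0.412 FPKM in labelled knockdown libraries. It reached 0.5 FPKM in 5 libraries, just enough to be tested, and 4 of these were controls. Control 1 lay among the labelled knockdown libraries, and the limma test did not pass (log2 difference -0.11, SE 0.07, adjusted p = 0.297), while the exact two-sided permutation test of FPKM, unadjusted, gave p = 0.0476. For the other tested members that permutation test gave p from 0.0873 to 0.984. After removal of the length trend the log2 difference of Nlrp3 was -0.01. Casp1, the protease, was at 2.07, 1.80, 1.64, 1.29 and 1.01 FPKM in control libraries and at 1.98, 1.15, 1.12, 1.42 and 1.06 FPKM in labelled knockdown libraries, all inside the control range (log2 difference -0.13, SE 0.13, limma adjusted p = 0.541). The fold interval ran from 0.748 to 1.12.

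In level, FPKM being per length, the control means ran from Nfkbia at 29.3 ± 4.64 through Myd88 at 7.85 ± 0.716 and Tlr2 at 4.38 ± 0.890 FPKM down to Nlrp3 at 0.575 ± 0.113 and Tlr4 at 0.534 ± 0.0585 FPKM (SD, n = 5). Nfkbia stood above Myd88, and Myd88 above Tlr2, in all 10 libraries. Tlr2 and Nfkb1 (10 libraries, in order in 7), Il1b and Casp1 (in 6) and Nlrp3 and Tlr4 (in 8) were neighbours whose control ranges overlapped. Control ranges of Nfkb1 and Tnfaip3 (in order in 9) overlapped as well. Tnfaip3 stood above Il1b, and Tnf above Nlrp3, in all 10, though the control ranges of each pair overlapped.

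The rest of the pathway was read from 7 lists of 117 genes, all present in the table, of which 97 were tested. Where groups are said below not to overlap, the share among all tested genes was 13.1%. In all, 14 of the 97 were lower and 5 higher, or 14.4% and 5.15%, beside 9.65% and 7.13% of all tested genes; the median log2 difference was -0.11. The lists were chosen with earlier results of these data known, so these shares are a description and not a test. The same 9.65% and 7.13% of all tested genes stand beside the count of each list below. The 19 calls were near the threshold. After removal of the length trend 9 of the 19 remained past it, with the filter on mean FPKM 14 did (Ikbkg, Rel, Itch, Rnf11 and Cxcl2 were lost, at adjusted p of 0.0504 to 0.0527), and 1 of the 19, Tlr7, held in every fit without 1 library.

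Of the other Toll-like receptors and their accessory proteins, 3 of 14 tested were lower and 0 higher (median log2 difference -0.29). All 3 are endosomal receptors for RNA; Tlr3, the endosomal receptor for double-stranded RNA, did not pass (log2 difference -0.13, limma adjusted p = 0.561), nor did Tlr12, an endosomal receptor for protozoan profilin (-0.24, 0.412). Tlr7 was at 1.27, 1.66, 1.07, 1.31 and 1.38 FPKM in control libraries and at 0.856, 0.531, 0.775, 0.769 and 0.555 FPKM in labelled knockdown libraries, with no overlap (log2 difference -0.46, SE 0.09, limma adjusted p = 0.0105). Tlr8 fell from 0.954 ± 0.218 to 0.468 ± 0.198 FPKM (adjusted p = 0.0270) and Tlr13, which in the mouse binds bacterial ribosomal RNA, from 3.37 ± 0.627 to 2.01 ± 0.601 FPKM (0.0300). Each held in 5 of 10 fits without 1 library, with limma adjusted p up to 0.0647 and 0.0719. Tlr8 reached 0.5 FPKM in 6 libraries, all 5 controls and labelled knockdown 4, so it was tested through the group where it was high; with the filter on mean FPKM its adjusted p was 0.0281. Tlr9, the endosomal sensor of bacterial DNA, was under the filter and is named after its values were seen. It was at 0.536, 0.385, 0.310, 0.484 and 0.572 FPKM in control libraries and at 0.0540, 0.126, 0.177, 0.108 and 0.118 FPKM in labelled knockdown libraries. The groups did not overlap, as in 12.0% of genes averaging 0.25 FPKM or more. The exact two-sided permutation p was 0.00794, which restates the separation seen before Tlr9 was named. With the filter on mean FPKM the limma adjusted p was 0.0115 (log2 difference -0.38), up to 0.0312 without 1 library. Tlr9 passed this filter through the group where it was high. Its mean was 0.457 FPKM in control and 0.117 FPKM in labelled knockdown libraries. The partners of Tlr4 at the membrane did not pass: Cd14, which hands lipopolysaccharide to it, had a log2 difference of -0.57 (adjusted p = 0.0614), Ly96, which encodes the co-receptor MD-2, 0.11 (0.651), and Lbp, the lipopolysaccharide-binding protein, 0.29 (0.161). Cd14 passed without labelled knockdown 4 (-0.72, adjusted p = 0.0184) and with array weights (0.0372), and Lbp passed without control 1 (0.41, 0.0373). Tlr1 (-0.02, adjusted p = 0.944) and Tlr6 (-0.06, 0.654), which pair with Tlr2, did not pass either. Whether endosomal and surface receptors differed from each other was not tested.

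**Figure D4:**
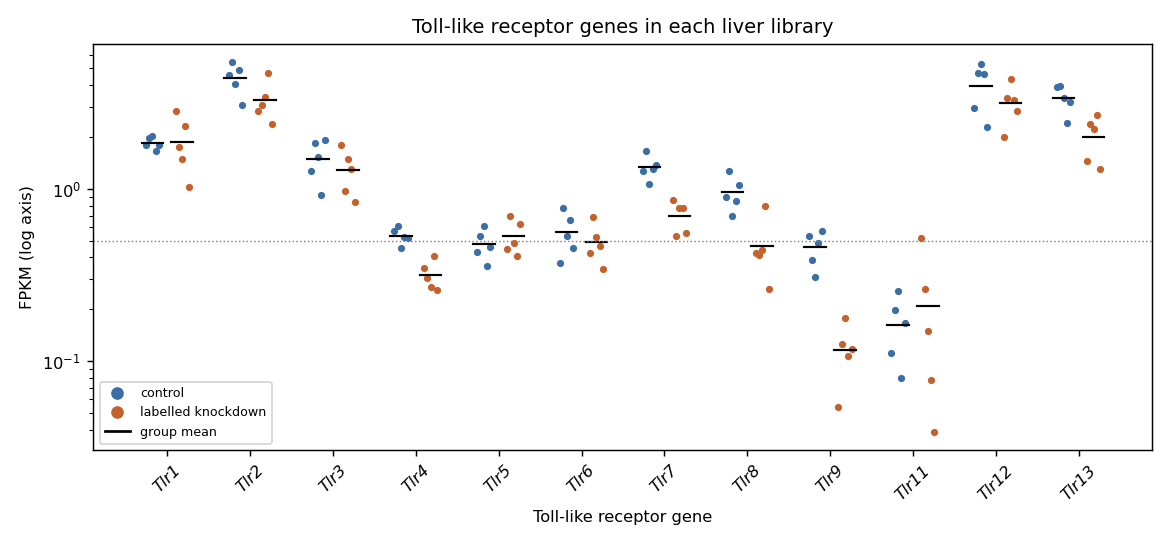
FPKM (vertical log axis) of the 12 Toll-like receptor genes of the table in control and labelled knockdown libraries, with group means as bars; the dotted line marks 0.5 FPKM, the level that the main filter asks for in 5 libraries. Groups are separate for Tlr4, Tlr7 and Tlr9.

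Among adaptors and kinases 3 of 19 tested were lower and 0 higher (median log2 difference -0.11). Tirap, which brings MyD88 to Tlr2 and Tlr4, was at 2.76 to 3.31 FPKM in control libraries and at 2.003, 1.88, 0.541, 1.91 and 2.16 FPKM in labelled knockdown 1 to 5 (log2 difference -0.66, limma adjusted p = 0.0269). Its call was lost without control 2 or 4 (0.0606 and 0.0514). Without labelled knockdown 3 the log2 difference was -0.47 (limma adjusted p = 0.0200). Irak1, a kinase recruited by MyD88, fell from 12.1 ± 1.08 to 9.46 ± 0.625 FPKM (adjusted p = 0.0208; 0.0556 and 0.0541 without control 2 or 3). For both the groups did not overlap. Ikbkg, the regulatory subunit of the IkB kinase, fell from 13.6 ± 1.61 to 10.99 ± 0.750 FPKM (adjusted p = 0.0474), and this held in 2 of 10 leave-one-out fits. Of the 9 other NF-kB and IkB genes, all tested, Rel, the c-Rel subunit of lymphoid and myeloid cells, was lower (1.53 ± 0.185 to 1.10 ± 0.202 FPKM, adjusted p = 0.0474), and 0 were higher. This call too held in 2 of the 10 fits.

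Of 13 tested negative regulators 2 were lower and 1 higher (median log2 difference -0.16). The ubiquitin ligase genes Itch (5.17 ± 0.219 to 4.38 ± 0.199 FPKM, limma adjusted p = 0.0460) and Rnf11 (46.2 ± 4.74 to 36.8 ± 5.06 FPKM, 0.0489), both partners of A20, fell. Sigirr, an inhibitory receptor of the interleukin-1 family, rose from 8.995 ± 1.11 to 11.3 ± 1.12 FPKM (adjusted p = 0.0448). Each of these 3 calls held in 1 of 10 fits without 1 library, with adjusted p up to 0.112. Socs3 went from 10.3 ± 5.5 to 4.59 ± 1.37 FPKM and did not pass (log2 difference -0.86, limma adjusted p = 0.141). It passed without control 5 (log2 difference -1.24, limma adjusted p = 0.0134), with array weights (0.0221) and with the replicate block (0.0474).

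Of 10 tested TNF and interleukin-1 receptor genes 2 were lower and 1 higher (median log2 difference 0.05). Il1rn, which encodes the interleukin-1 receptor antagonist, fell from 4.36 ± 0.380 to 2.91 ± 0.685 FPKM, with no overlap (log2 difference -0.47, SE 0.12, limma adjusted p = 0.0229), and its adjusted p was 0.0559 without control 3. Tnfrsf1b, the gene of TNF receptor 2, fell from 13.2 ± 1.64 to 9.76 ± 1.33 FPKM (adjusted p = 0.0330). Tradd, the adaptor of TNF receptor 1, rose from 9.40 ± 0.402 to 11.9 ± 1.56 FPKM (adjusted p = 0.0334), again with no overlap. The Tnfrsf1b and Tradd calls held in 2 and 4 of 10 fits without 1 library.

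Of 15 tested inflammatory target genes of NF-kB 1 was lower and 2 higher (median log2 difference -0.16). Vcam1, an adhesion molecule that captures leukocytes, fell from 4.12 ± 0.381 to 2.73 ± 0.605 FPKM, with no overlap (log2 difference -0.47, limma adjusted p = 0.0204), and its adjusted p was 0.0534 without control 2. Saa3, an inflammatory serum amyloid gene, rose from 4.46 ± 1.78 to 7.71 ± 1.35 FPKM (adjusted p = 0.0386). Cxcl2, a neutrophil chemokine, was at 0.623 ± 0.293 and 1.15 ± 0.271 FPKM (0.0472). It reached 0.5 FPKM in 2 controls and all 5 labelled knockdown libraries, so it was tested through the group where it was high, and with the filter on mean FPKM its adjusted p was 0.0504. The Saa3 and Cxcl2 calls held in 4 and 2 of 10 fits without 1 library. The neutrophil markers S100a8 (log2 difference 0.12, limma adjusted p = 0.631) and S100a9 (0.31, 0.321) did not pass, and Ly6g was at 0 in 9 of 10 libraries. Of 8 tested monocyte and neutrophil markers 1, Itgam, was lower and 0 were higher. The summed level of the 12 listed ones was 23.2 to 27.4 FPKM in control and 15.7 to 28.4 FPKM in labelled knockdown libraries, and their part in these values was not tested.

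Of 17 other inflammasome genes tested 2 were lower and 1 higher (median log2 difference -0.01). Nek7, a kinase that binds NLRP3, fell from 9.07 ± 0.469 to 7.15 ± 0.962 FPKM (limma adjusted p = 0.0310), and Il18bp, a secreted protein that holds interleukin-18, from 6.70 ± 0.761 to 5.02 ± 0.410 FPKM (0.0224). The Nek7 call held in 3 of 10 fits without 1 library, and that of Il18bp was lost without control 3 (0.0573). Nlrp6, a sensor of epithelial cells and hepatocytes, rose from 18.3 ± 3.94 to 29.3 ± 5.78 FPKM (log2 difference 0.65, adjusted p = 0.0298). Labelled knockdown 4, at 19.9 FPKM, lay inside its control range, and the call held in 4 of the 10 fits.

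**Figure D5:**
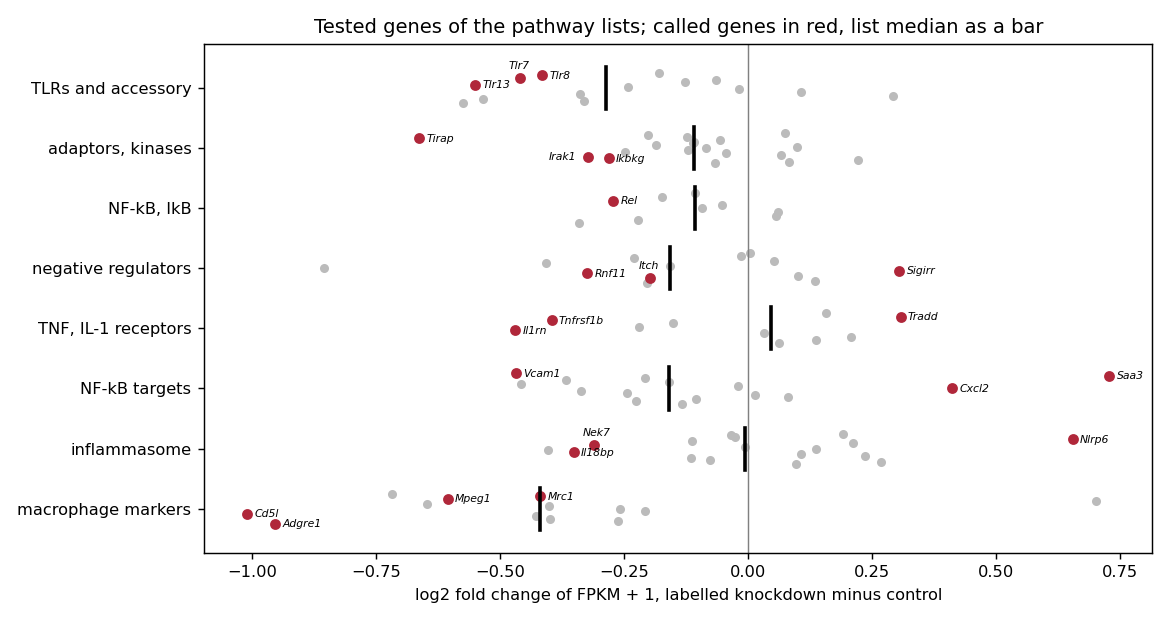
Difference in mean log2(FPKM + 1) (horizontal axis, labelled knockdown minus control) of each tested gene in the 7 pathway lists and of the 13 tested macrophage markers. Genes past the limma test are red and named, the others grey, and black bars mark list medians, from -0.42 for macrophage markers to 0.05 for TNF and interleukin-1 receptor genes.

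The genes whose values followed each member most closely were found over the 10 libraries after group means were removed, among 11804 named genes. Being the highest of so many over 10 libraries, these correlations are a description, with no p. For Tlr2 the nearest were Cpxm1 (Pearson r 0.97, Spearman rho 0.98), a carboxypeptidase-like gene, and Cd44 (r 0.96, rho 0.98), an adhesion receptor. For Il1b the nearest was Fcer1g (r 0.94, rho 0.95), the signalling chain of Fc receptors on myeloid cells, and for Tnf it was Cd8a (r 0.93, rho 0.93), the co-receptor of cytotoxic T cells. For Nfkb1 the nearest were Tmem43 (r 0.97, rho 0.93) and the collagen gene Col5a2 (r 0.97, rho 0.96), and for Nfkbia it was Itgb7 (r 0.96, rho 0.94), a leukocyte integrin. Casp1 was followed most closely by Ihh (r 0.965) and Gmip (0.961), and Tnfaip3 by Anxa2r1 (0.963) and Snord59a (0.955). Myd88 was nearest to Sorbs3 (r 0.946) and Fcgrt (0.927), and Nlrp3 to Atxn1 (0.917) and Fst (0.912). Second nearest were Slfn8 for Il1b (r 0.935), Aqp11 for Tnf (0.921) and Snx20 for Nfkbia (0.929). Whether these genes share a cell type with the members was not tested. Without the 2 libraries farthest from the median of the member, r of the 18 nearest genes ranged from 0.617 to 0.966. The lowest were those of Nlrp3, at 0.699 for Atxn1 and 0.617 for Fst, and the others stayed at 0.845 or above. The lymphocyte markers themselves were low: Cd3e was at 0.278 ± 0.0497 FPKM in control and 0.294 ± 0.220 FPKM in labelled knockdown libraries.

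Markers of the other liver cells were read for the same libraries, beside 9.65% of all tested genes called lower and 7.13% called higher. Of 10 tested endothelial markers 1, Pecam1, was lower and 0 were higher (median log2 difference -0.32), with a summed level of 21.5 to 40.1 FPKM in control and 18.6 to 27.4 FPKM in labelled knockdown libraries. Of 10 tested stellate cell and myofibroblast markers 3 were lower (median -0.22), with sums of 95.5 to 109 and 58.8 to 108 FPKM. Of 6 tested cholangiocyte markers 1, Cdh1, was lower (median -0.46), with sums of 146 to 393 and 55.2 to 319 FPKM. Of 9 tested hepatocyte markers 4 were lower, Apob, Hnf4a, Cps1 and Ass1, and 1, Ttr, was higher (median -0.17). Of 4 tested T, NK and B cell markers 0 passed in either direction, and the 13 listed ones summed to 6.09 to 8.07 and 4.57 to 10.5 FPKM. The part of these cell markers in the values of the 10 genes was not tested.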

How the data were processed

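Poly(A) RNA of 10 liver samples was made into strand-marked libraries, per the labels' protocols. Sample titles gave the groups and replicate numbers. The tools named in the submitters' processing notes are cutadapt 1.9, HISAT2 2.0.4 and StringTie 1.3.4d. Those notes name a human build, GRCh38, while the table holds mouse Ensembl identifiers, so the authors' mouse build is not known. FPKM per library was deposited by the authors, per the file headers, beside their own fold ratio, its log2 value, and a p-value and q-value from a test that no source here names. No more than 14.6% of low values were whole multiples of 1 fragment (tolerance 0.02), so counts were not recovered and depth is not known; 21653 to 23079 genes were above 0 per library. No 2 libraries were identical (0 pairs). Nothing beyond the title's replicate number says the samples are separate mice, so p-values measure the spread between these samples.

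Genes with at least 0.5 FPKM in at least 5 libraries were tested as log2(FPKM + 1) with limma 3.58.1 (R 4.3.3), using a trended prior variance and group as the only term; two-sided p-values were Benjamini-Hochberg adjusted over all tested genes and called at 0.05, with 95% intervals. Exact permutation of FPKM was planned for members under the filter, here Tlr4, and was also run on the other members and on Tlr9. Transcript lengths were those of GENCODE M21, for 97.9% of tested genes, and a length trend was removed per library with a spline of 4 degrees of freedom. The fit was tested on simulated data with larger changes than those of the members, so that test does not show how it does on changes of their size. No batch that separates libraries is given. The members and lists were chosen with earlier results of these data known. Named genes were, by rule, the members, up to 4 called genes of each pathway list by p, and the defining cell markers. The 2 genes correlated most with each tested member were also named. Tlr1, Tlr6, Tlr9, Cd14, Ly96, Lbp, Tlr3, Tlr12, Ly86, Tnip1, Tollip, Ripk1, Naip2 and Socs3 were chosen after values were seen. So were called genes of the marker lists other than Adgre1, and the Tnf to Il1b ratio. Promoter sequences were RefSeq's (GRCm38.p6). Alternatives were other pseudocounts, filters, scalings, weights, no trend, a replicate block, removal of the length trend, and leaving out each library.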

Additional observations from a re-analysis of the deposited data

Results flagged for a closer look

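Each group of 5 libraries was checked for a library whose gap to its nearest neighbour took most of the group's range, for 86 groups of values on the log2(FPKM + 1) scale; 6 were far from the rest, where chance gives about 1 in 20. Tirap was far below the others in labelled knockdown 3, at 0.541 FPKM beside 1.88 to 2.16 FPKM, and in control 3, at 2.76 FPKM beside 3.16 to 3.31 FPKM. Rel was far above the others in labelled knockdown 4, at 1.45 FPKM beside 0.961 to 1.06 FPKM. Sigirr stood out in labelled knockdown 1, at 13.3 FPKM beside 10.8 to 10.9 FPKM. Tnfrsf1b was low in control 5, at 10.3 FPKM beside 13.6 to 14.3 FPKM. The mean of the tested T, NK and B cell markers was high in control 2, at 1.29 on the log2(FPKM + 1) scale beside 0.955 to 1.04.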

How the results depend on the processing

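Of the 10 member genes 0 were called higher under any setting. The count called lower was 1 without a filter on low values and with a filter on mean FPKM (Tlr4 in both), 1 with array weights (Tlr2), and 0 to 1 without 1 library. The log2 difference of Nfkbia turned to -0.051 with array weights and -0.042 without the length trend, and ranged from -0.050 to 0.084 without 1 library; that of Lgals3 ranged from -0.093 to 0.26. Of the pathway genes 5 were higher and 14 lower. This became 0 and 5 without a filter, 2 and 7 without the length trend, 23 lower with array weights, and 0 to 4 higher and 3 to 20 lower without 1 library. Over all genes 511 were higher and 682 lower without a filter, 2047 lower with array weights, 720 lower without the length trend, and 440 to 954 higher and 533 to 1733 lower without 1 library. The 20 pathway genes and the 1733 of all genes called lower both came without labelled knockdown 4. In that fit Cd14, Ly86, Tnip1, Tollip, Ripk1 and Naip2 were gained among the pathway genes. The causes were not tested. Without a filter more genes entered the fit, 29657 beside 13471. With the replicate number as a block 2 pathway genes were higher and 8 lower, and the adjusted p of Tlr4 with the filter on mean FPKM was 0.0804. Same-numbered libraries correlated by -0.01 to 0.11 in their departures from group means, so the numbers were not taken as pairs. Low expression limits Tlr4, Tlr9 and Nlrp3 most, since their values lie near the filter and FPKM carries no counting error.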
